A study of Rattus norvegicus with 30 samples.

Results

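DNAm was examined at 4 genes of second messenger signalling, Camk2d, Itpr2, Prkar1b and Dgki, in the prefrontal cortex (PFC) of rats. Each gene was taken with the window around its site or sites in the study's lists of differentially methylated regions, extended by 100 kb on each side, and the genes were therefore selected on measured group differences in these same animals. Peaks of all 30 libraries were merged where they shared 1 bp or more, and a merged region belonged to a locus when it overlapped the window and had a called peak in at least 2 libraries. This gave 211 of the 432103 autosomal regions called in at least 2 libraries. The Camk2d window held 45, the Itpr2 window 57, the Prkar1b window 50 and the Dgki window 59.

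Methylated DNA was immunoprecipitated with an antibody against 5-methylcytosine and sequenced (meDIP-seq) from the PFC of Sprague-Dawley rats on postnatal day 22, to compare prenatal alcohol with the food restriction that comes with it. From gestation day 1 to 21, dams of PAE animals drank a liquid diet with 36% of its calories from ethanol (6.37% v/v) without restriction. Dams of pair-fed (PF) animals received a liquid diet in which maltose-dextrin replaced the ethanol, in the ration eaten by a PAE partner, and dams of control (CON) animals ate the control diet as pellets without restriction. Each group had 10 animals from 5 dams, with 1 animal labelled female and 1 labelled male per dam, spread unevenly over 5 sequencing chips. PF animals thus differ from CON animals in both the amount and the form of the diet, and the whole tissue mixes neurons and glia, so that a change in cell shares and a change of DNAm within cells cannot be told apart.

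The labelled sex did not go with the sex chromosomes in 18 of the 30 libraries. In 7 libraries the share of peaks on chromosome X was 2.65 to 3.14% and the number on chromosome Y was 4 to 11. In the remaining 23 the share on X was 0.774 to 1.15% and the number on Y was 38 to 87. Of the 7 libraries, 2 were labelled female and 5 labelled male. The 12 libraries that went with their label were 3 CON, 3 PF and 6 PAE libraries. Whether group labels were affected as well was not tested, and the listed sites are given with all libraries and with these 12.

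These genes act where receptors are turned into messages inside the cell. Activated phospholipase C splits a membrane lipid into inositol trisphosphate, which opens receptors such as Itpr2 on the endoplasmic reticulum and releases calcium, and diacylglycerol, which Dgki phosphorylates and so removes. Calcium bound to calmodulin activates kinases of the Camk2 family, which are known for their part in synaptic plasticity, while cyclic AMP releases the catalytic subunits of protein kinase A from regulatory subunits such as Prkar1b.

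The measure of DNAm was the normalized height, which is the greatest number of fragments stacked at one position of the region's peak (its pileup) for every 1000000 fragments kept after filtering. Libraries had 11548314 to 15472634 filtered fragments in CON, 12571392 to 16555049 in PF and 13254266 to 15537001 in PAE animals. An animal with no called peak, or with a lower one, was set to a floor of 0.438, the highest of the lowest called heights of the 30 libraries. Coverage under the calling threshold was not used here, so a value at the floor stands for no called peak or a called one at or under 0.438, and does not mean an absence of methylation.

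Most of the 211 regions were called in a minority of animals. The number of animals with a called peak had a median of 7 over the 4 loci and of 6 over all 432103 autosomal regions, and 45 of the 211 regions (21.3%, against 23.3% over all) were called in 15 or more animals. A peak in all 30 animals was found at 4 regions (1.9%, against 2.76% of all autosomal regions), 2 in the Itpr2 window, 1 in the Prkar1b window and 1 in the Dgki window. In the Camk2d window no region was called in more than 16 animals. Just inside the rule, 31 regions were called in exactly 2 animals, with called heights of 0.344 to 1.43 (median 0.646), and just outside it 75 regions of the windows were called in 1 animal, at 0.358 to 1.52 (median 0.715). The 180 regions called in at least 3 animals were tested, 37 at Camk2d, 51 at Itpr2, 45 at Prkar1b and 47 at Dgki, and the other 31 were not. A region that passes this filter through the animals in which it is high is more likely to differ, so the tested regions do not stand for all 211.

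The loci differed in how high their called peaks were more than in how densely they were spaced. The windows held 22.4 (Camk2d), 28.4 (Itpr2), 25.0 (Prkar1b) and 27.5 (Dgki) regions per 100 kb, which covered 13.6, 16.6, 14.6 and 15.3% of them. Their lengths ran from 284 to 1568 bp (median 541 bp). The typical called height, as the median over regions of each region's median called height, was 1.13 at Itpr2, 0.806 at Dgki, 0.805 at Prkar1b and 0.651 at Camk2d, against 0.744 over all autosomal regions. These are values of 4 windows around chosen sites, and no test between them was made.

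The number of regions of the 4 loci with a called peak in an animal went with how many peaks the animal had in all. It was 49 to 105 in CON animals (median 68), 53 to 86 in PF animals (median 62.5) and 46 to 101 in PAE animals (median 56.5), and the groups overlapped over most of their ranges. Across the 30 animals it correlated with the number of autosomal peaks (Pearson r = 0.91, Spearman rho = 0.86, n = 30), which is partly built in, since the same libraries and the same peak calls give both. Autosomal peaks numbered 151576 ± 26759 in CON, 143998 ± 19297 in PF and 135828 ± 26494 in PAE animals (SD, n = 10 each). Per 100000 autosomal peaks, the regions of the 4 loci numbered 48.4 ± 3.98 in CON, 45.3 ± 4.08 in PF and 45.0 ± 5.29 in PAE animals (SD, n = 10 each), so the groups lay within 1 SD of each other. Fewer PAE than CON animals had a peak at 105 of the 211 regions (49.8%, against 44.8% of all autosomal regions) and more had one at 55 (26.1%, against 30.1%).

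Among the calcium-dependent genes, Camk2d encodes the delta subunit of calcium/calmodulin-dependent protein kinase II. Its listed site, at chr2:230944590-230945113 of Rn6, is annotated to an intron by the study, which listed it as PAE-specific. Animals with a peak there were 3 of 10 in CON, 3 of 10 in PF and 1 of 10 in PAE. The normalized height was 0.438 to 1.30 in CON, 0.438 to 0.783 in PF and 0.438 to 0.501 in PAE animals, with a median at the floor of 0.438 in each group. All 3 groups overlapped at the floor, and the highest animal was CON replicate C43_F. The mean was 0.562 ± 0.282 in CON, 0.527 ± 0.147 in PF and 0.445 ± 0.0198 in PAE animals (SD, n = 10 each).

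The fitted log2 difference at the Camk2d site, adjusted for labelled sex and chip, was −0.30 for PAE against CON (standard error 0.173), −0.30 for PAE against PF (0.173) and −0.01 for PF against CON (0.179). The contrasts share their animals and the site was listed on them, so no test is given here or at the other listed sites. Without CON replicate C43_F the difference between PAE and CON was −0.12. Both CON libraries of chip UEX000299 had a peak, with a mean height of 1.05, while 1 of the 3 PAE libraries of that chip had one, with a mean of 0.459. On the other 3 chips with both groups, PAE animals had no peak and CON animals had a single one. On the 3 chips shared with PF, PAE animals had the lower mean on 1, the higher on 1 and an equal one on 1. Among the 12 libraries that went with the labelled sex, 1 CON, 1 PF and 0 PAE libraries had a peak.

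The nearest tested regions were 1638 bp below it (chr2:230942589-230942951, called in 1 of the CON, 2 of the PF and 3 of the PAE animals) and 5518 bp above it (chr2:230950632-230951643, called in 4 of the CON, 4 of the PF and 7 of the PAE animals), so that at both more PAE than CON animals had a peak. The mean height was 0.450 in PAE against 0.466 in CON animals below the site and 0.528 against 0.622 above it, while the fitted log2 differences were 0.09 and −0.15. Within the 4 chips with both groups, PAE animals had the higher mean on 2 and an equal one on 2 below the site, and the higher on 3 and the lower on 1 above it. The highest median height of the window lay at chr2:230959745-230960785, with 0.438 to 1.54 in CON (median 0.791), 0.438 to 1.11 in PF (median 0.438) and 0.438 to 1.00 in PAE animals (median 0.438). It was called in 8 of the CON, 4 of the PF and 4 of the PAE animals, and the 4 PAE animals with a peak were all labelled female. The groups overlapped, and the log2 difference of −0.32 between PAE and CON was not past the threshold by limma (standard error 0.211, unadjusted p = 0.136, adjusted p = 0.726).

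In the Camk2d window, the neighbouring region with the smallest p between PAE and CON was chr2:230890884-230891381, called in 3 of the CON, 1 of the PF and 1 of the PAE animals. Its height reached 1.04 in CON, 0.552 in PF and 0.584 in PAE animals, with all 3 medians at 0.438. The log2 difference was −0.35 (standard error 0.150), and −0.23 without CON replicate C45_M. For both contrasts with PF the region with the smallest p was chr2:230851634-230852568, which had a peak in 5 PF animals, 4 of them labelled male, and in 1 CON and 1 PAE animal. Height there was 0.438 to 0.805 in PF animals (median 0.510) and at most 0.527 in CON and 0.591 in PAE animals. The log2 difference was −0.27 between PAE and PF and 0.29 between PF and CON. With only peaks that covered at least 50% of the region these were −0.14 and 0.11, and without PF replicate PF28_M the latter was 0.19. Neither region would have passed the filter of 3 animals without the group in which it was high, so no p is given for them.

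Itpr2, the inositol trisphosphate receptor of type 2, releases calcium from the endoplasmic reticulum and is known in brain mainly from astrocytes. Its listed site, chr4:180681932-180682426, is annotated to an intron and was listed as PAE-specific. It was called in 2 CON animals, at heights of 0.791 and 0.716, in 1 PF animal, at 1.24, and in 0 PAE animals. All other animals were at 0.438, so the groups overlapped at the floor, and all 3 libraries with a peak were labelled female and went against that label. The −log10 q-value of the 2 CON peaks was 1.78 and 1.87, against a calling limit of q = 0.05, and that of the PF peak was 5.37.

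The means at the Itpr2 site were 0.501 ± 0.134 in CON, 0.519 ± 0.254 in PF and 0.438 in PAE animals (SD, n = 10 each). The fitted log2 difference was −0.20 for PAE against CON (standard error 0.149), −0.17 for PAE against PF (0.149) and −0.03 for PF against CON (0.154). With peaks at q below 0.01 alone the last value was 0.10, since neither CON peak passed that limit. Without PF replicate PF26_F, the single PF animal with a peak, the difference between PAE and PF was −0.06, and without CON replicate C43_F that between PAE and CON was −0.0996. None of the 12 libraries that went with the labelled sex had a peak.

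The listed Itpr2 site lay 771 bp above a region with a peak in every library. This neighbour, chr4:180680488-180681160, was called in all 30 animals, with heights of 1.36 to 1.80 in CON (median 1.59), 0.925 to 2.55 in PF (median 1.42) and 0.962 to 2.32 in PAE animals (median 1.56). The 3 groups overlapped almost fully. The mean was 1.58 in PAE and 1.54 in CON animals, PAE animals had the higher mean on 3 and the lower on 1 of 4 shared chips, and the fitted log2 difference was −0.17 (standard error 0.178, limma unadjusted p = 0.340). The nearest tested region above the site, at a distance of 3428 bp (chr4:180685855-180686293), was called in 2 of the CON, 3 of the PF and 3 of the PAE animals. Among animals labelled female it was called in 2 of 5 CON, 2 of 5 PF and 0 of 5 PAE animals, and among those labelled male in 0, 1 and 3.

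The highest median height of all 4 loci lay at chr4:180595274-180595667, near the lower end of the Itpr2 window. Its height was 3.21 to 5.23 in CON (median 4.49), 0.438 to 4.03 in PF (median 3.23) and 2.27 to 4.44 in PAE animals (median 3.28), with a peak in 10, 9 and 10 animals. CON animals were the highest as a group, although the groups overlapped. The log2 difference was −0.67 between PF and CON (standard error 0.275, limma unadjusted p = 0.0210, adjusted p = 0.773) and −0.35 between PAE and CON (0.265, unadjusted p = 0.200, adjusted p = 0.763). The PF values include replicate PF24_F, at the floor without a called peak, while the next PF animal had 2.56. The difference between PF and CON without this animal is not given here. PF animals had a lower mean height than CON animals on each of the 4 chips that held both groups.

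The Itpr2 window held most of the regions with a small p between PAE and CON. The smallest was at chr4:180746332-180746836, called in 8 of the CON, 4 of the PF and 1 of the PAE animals. Its height was 0.438 to 2.49 in CON (median 1.24), 0.438 to 1.91 in PF (median 0.438) and 0.438 to 1.498 in PAE animals (median 0.438), where the single PAE animal with a peak was inside the CON range and the other 9 were at the floor. The log2 difference for PAE against CON was −1.20 (standard error 0.319, limma unadjusted p = 0.000722, adjusted p = 0.661), so it did not pass after adjustment over all 352026 tested regions. The region was picked by its p in these same animals, so the values that follow describe it and are no further evidence. PAE animals had the lower mean on each of the 4 chips with both groups, the difference was −1.33 to −1.08 when each animal was left out in turn, and in the 12 libraries that went with the labelled sex a peak was called in 3 of 3 CON, 1 of 3 PF and 0 of 6 PAE libraries.

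Between PAE and PF, the smallest p of the Itpr2 window was at chr4:180688908-180689824, also above the listed site. Height was 1.05 to 2.23 in CON (median 1.48), 1.05 to 2.05 in PF (median 1.70) and 0.438 to 1.72 in PAE animals (median 1.30), with a peak in all animals but 1 PAE animal. The groups overlapped, with a log2 difference of −0.57 between PAE and PF (standard error 0.193, limma unadjusted p = 0.00575, adjusted p = 0.988). With only peaks that covered at least 50% of the region, the sign of the difference changed, to 0.03, and without PAE replicate E1_F it was −0.32 (unadjusted p = 0.0598). Between PF and CON, it was at chr4:180667727-180668300, with 0.438 to 1.56 in CON (median 1.06), 0.438 to 1.39 in PF (median 0.438) and 0.438 to 1.57 in PAE animals (median 0.785). It was called in 7 of the CON, 3 of the PF and 6 of the PAE animals, and the log2 difference of −1.03 between PF and CON (standard error 0.312, unadjusted p = 0.00248, adjusted p = 0.773) was −0.59 without the chip term (unadjusted p = 0.0690).

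Prkar1b is a regulatory subunit of protein kinase A, found mainly in neurons, which holds the kinase inactive until cyclic AMP binds. Its listed site, chr12:17619773-17620094, spans an exon and an intron by the study's annotation and was listed as shared by PAE and PF. It was the site called most often, in 4 CON, 4 PF and 2 PAE animals. Heights were 0.438 to 1.12 in CON, 0.438 to 0.874 in PF and 0.438 to 1.00 in PAE animals, with all 3 medians at 0.438, so that the groups overlapped over nearly the whole range. The means were 0.623 ± 0.261 in CON, 0.578 ± 0.190 in PF and 0.538 ± 0.213 in PAE animals (SD, n = 10 each).

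The Prkar1b site was called more often in libraries labelled male. All 4 CON animals with a peak were labelled male, as were 3 of the 4 PF animals and 1 of the 2 PAE animals, and 4 of the 7 libraries with a high share of peaks on chromosome X had a peak there. The fitted log2 difference was −0.30 for PAE against CON (standard error 0.231), −0.14 for PF against CON (0.240) and −0.16 between PAE and PF (0.232). These were −0.18 without CON replicate C41_M, −0.0165 without CON replicate C46_M and −0.0748 without PF replicate PF24_F. In the 12 libraries that went with the labelled sex, a peak was present in 2 of 3 CON, 1 of 3 PF and 1 of 6 PAE libraries. Within chips, PAE animals had the lower mean on 3 and the higher mean on 1 of the 4 chips shared with CON. PF animals had the lower mean on 2, the higher on 1 and an equal one on 1 of the 4 chips shared with CON.

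Below the Prkar1b site, at a distance of 1416 bp, lay a region called in 9 animals of each group (chr12:17617818-17618356). Its height was 0.438 to 2.37 in CON (median 1.23), 0.438 to 1.52 in PF (median 1.15) and 0.438 to 1.57 in PAE animals (median 1.35), and its log2 differences were −0.01 for PAE against CON and −0.07 between PF and CON, each under its standard error of 0.280 and 0.290. The mean was 1.14 in PF against 1.35 in CON animals, and PF animals had the lower mean on each of the 4 chips that held both. Above the site, at 3889 bp, chr12:17623984-17624862 was called in 1 of the CON, 2 of the PF and 1 of the PAE animals. The highest median of the window, at chr12:17685631-17686593, was called in all 30 animals at 1.35 to 1.85 in CON (median 1.48), 1.09 to 1.99 in PF (median 1.58) and 0.951 to 2.25 in PAE animals (median 1.48). These medians lay closer together than the spread within any group.

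The smallest p of the Prkar1b window between PAE and CON was at chr12:17715589-17716089, called in 4 of the CON, 1 of the PF and 1 of the PAE animals. Its highest values were 1.30 in CON, 1.11 in PF and 0.749 in PAE animals, each group with a median of 0.438, and the log2 difference was −0.39 (standard error 0.185). Both contrasts with PF had the smallest p at chr12:17565391-17565997, called in 3 PF animals, with a highest value of 0.716, and in 0 CON and 0 PAE animals. Both regions of this window passed the filter of 3 animals only through the group in which they were high, CON and PF, so no p is given. The log2 difference was −0.17 between PAE and PF and 0.17 between PF and CON, and −0.08 and 0.09 without PF replicate PF27_F.

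Dgki, diacylglycerol kinase iota, is a mainly neuronal enzyme that ends the diacylglycerol signal by converting it to phosphatidic acid. It had 2 listed sites, both in introns and both listed as PF-specific. At chr4:64805127-64805550 a peak was called in 3 of the CON, 0 of the PF and 4 of the PAE animals. Heights were 0.438 to 1.73 in CON and 0.438 to 0.953 in PAE animals, with medians at 0.438, and 0.438 in every PF animal. The 3 CON animals with a peak (1.73, 1.39 and 0.643) included littermates C41_F and C41_M, and 3 of the 4 PAE animals with a peak were labelled male. The groups overlapped at the floor.

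At this first Dgki site the mean (± SD of 10 animals) was 0.682 ± 0.472 in CON and 0.602 ± 0.217 in PAE animals, and 0.438 in PF animals. The fitted log2 difference was −0.56 between PF and CON (standard error 0.257), 0.46 between PAE and PF (0.248) and −0.10 between PAE and CON (0.248). Without CON replicate C43_F the last value changed sign, to 0.13, and the difference between PF and CON was −0.37. PAE animals had a lower mean than CON animals on 1, a higher one on 2 and an equal one on 1 of the 4 chips that held both. They had a higher mean than PF animals on each of the 3 shared chips, and PF animals had a lower mean than CON animals on 3 of 4 chips and an equal one on the other. Of the 12 libraries that went with the labelled sex, 1 of 3 CON, 0 of 3 PF and 3 of 6 PAE libraries had a peak.

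The second Dgki site, chr4:64819709-64820106, was called in 2 CON animals, at 0.791 and 0.601, in 0 PF animals and in 1 PAE animal. The PAE peak, with a pileup of 6 fragments, was lower than the floor, so that every PAE and PF animal had the value 0.438. The mean of CON animals was 0.490 ± 0.118 (SD, n = 10). The fitted log2 difference was −0.14 between PF and CON (standard error 0.0789), −0.14 for PAE against CON (0.0761) and 0.00 between PAE and PF (0.0763). Without CON replicate C43_F the first of these was −0.05 and the next −0.0285. Of the 12 libraries that went with the labelled sex, 1 PAE library had a peak, under the floor, and all 3 differences were 0. The value of 0.00 between PAE and PF in all libraries rests on setting the PAE peak to the floor, and reached 0.34 among the alternatives.

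The tested regions next to the Dgki sites all had peaks in some PF animals, unlike the sites. The sites were listed as PF-specific in these same animals and the neighbours were not, so this contrast is no further evidence. Below the first site, at 1386 bp, chr4:64803414-64803740 was called in 0 of the CON, 3 of the PF and 2 of the PAE animals. Between the sites, chr4:64808143-64808596 was called in 4 of the CON, 2 of the PF and 1 of the PAE animals. Above the second site, at 6154 bp, chr4:64826261-64826957 was called in 1 of the CON, 2 of the PF and 4 of the PAE animals.

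The highest median height of the Dgki window, at chr4:64858477-64859306, was called in all 30 animals. It was 0.776 to 1.97 in CON (median 1.33), 1.15 to 1.77 in PF (median 1.49) and 0.883 to 1.57 in PAE animals (median 1.08). PAE animals tended to the lower end but overlapped both other groups, and the log2 difference was −0.33 between PAE and PF (standard error 0.167, limma unadjusted p = 0.0598, adjusted p = 0.988) and −0.17 between PAE and CON (0.167, unadjusted p = 0.314).

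In the Dgki window, chr4:64715269-64716049 had the smallest p in both contrasts with CON, being called in 6 of the CON, 2 of the PF and 5 of the PAE animals. Height was 0.438 to 1.36 in CON (median 0.696), 0.438 to 0.637 in PF (median 0.438) and 0.438 to 0.679 in PAE animals (median 0.478), and overlapped. The log2 difference was −0.67 between PF and CON (standard error 0.218, limma unadjusted p = 0.00456, adjusted p = 0.773) and −0.58 between PAE and CON (0.211, unadjusted p = 0.0101, adjusted p = 0.661). With only peaks that covered at least 50% of the region these were −0.125 and −0.14. Between PAE and PF it was chr4:64860899-64861383, called in 2 of the CON, 2 of the PF and 0 of the PAE animals, with a highest value of 1.28 in PF animals and a log2 difference of −0.38. The difference was −0.25 without PF replicate PF26_M and −0.07 in the 12 libraries that went with the labelled sex. Of those 12, 1 of 3 CON, 0 of 3 PF and 0 of 6 PAE libraries had a peak. The −0.07 is thus a fitted value with both compared groups at the floor. This region would not have passed the filter without the PF animals, and no p is given.

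Over the 4 loci, 175 tested regions remained when the 5 listed sites were set aside, and none passed an FDR of 0.05 by limma in any contrast, with smallest adjusted p of 0.661 between PAE and CON, 0.988 between PAE and PF and 0.773 between PF and CON. Over all 352026 tested regions, 1 passed between PAE and CON (0.000284%), 0 between PAE and PF (0%) and 0 between PF and CON (0%). Between PAE and CON, 17 of the 175 had an unadjusted p under 0.05, all 17 lower in PAE animals (9.71%, against 6.03% of all tested regions) and 0 higher (against 1.34%), although this depended on the processing. The 17 include chr2:230890884-230891381 and chr12:17715589-17716089, for which no p is given above. Both passed the filter only through the CON animals, the group in which they were high. Lower and higher regions were 11 and 3 under quantile normalization (8.0% together, against 6.32% of all tested regions), 9 and 1 under median ratio scaling (5.71%, against 6.14%), 6 and 2 with 0 and a pseudocount of 0.1 in place of the floor (4.57%, against 6.78%), 9 and 1 without CON replicate C45_M (5.71%, against 6.15%) and 10 and 1 without PAE replicate E3_F (6.29%, against 6.02%). By window, the 17 were 9 of 50 at Itpr2 (18.0%), 4 of 45 at Dgki (8.89%), 2 of 36 at Camk2d (5.56%) and 2 of 44 at Prkar1b (4.55%). Between PAE and PF, 6 were lower in PAE animals (3.43%, against 2.95%) and 2 higher (1.14%, against 1.51%). The 6 include chr2:230851634-230852568, chr12:17565391-17565997 and chr4:64860899-64861383, which passed the filter only through the PF animals. Lower and higher regions were 2 and 3 without PF replicate PF27_F (2.86% together, against 3.74% of all tested regions). They were 3 and 3 without PAE replicate E3_F (3.43%, against 4.25%). Every other fit without 1 animal had more lower than higher regions. Between PF and CON, 11 were lower in PF animals (6.29%, against 4.4%) and 4 higher (2.29%, against 2.06%), with 7 of the 11 at Itpr2 (14.0% of its 50 regions). The 11 include chr2:230890884-230891381, and the 4 include chr2:230851634-230852568 and chr12:17565391-17565997, all named above without a p.

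The regions were set around sites chosen for group differences in these animals, and no test was made of their shares against those of all regions. The median log2 difference of the 175 regions was −0.10 between PAE and CON, −0.04 between PAE and PF and −0.04 between PF and CON, against −0.05, −0.02 and −0.03 over all tested regions. In the Itpr2 window it was −0.21 between PAE and CON, with 41 of 50 regions below 0 (82.0%, against 63.2% of all tested regions), which was the lowest of the 4 windows. PAE animals also had the fewest autosomal peaks on average, and whether this accounts for the direction was not tested. Without the libraries that went against the labelled sex, the counts at an unadjusted p under 0.05 were 8 for PAE against CON (4.57%, against 4.74% of all tested regions), 3 for PAE against PF (1.71%, against 4.13%) and 4 for PF against CON (2.29%, against 3.35%).

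No group difference of these loci was shown to depend on the labelled sex. The interaction of group and labelled sex passed an FDR of 0.05 at 0 of the 352026 regions by limma in each contrast. At an unadjusted p under 0.05, it was met at 10 of the 175 regions between PAE and CON, 6 between PAE and PF and 10 between PF and CON, beside 4.87%, 3.19% and 4.77% of all tested regions. As 18 libraries went against their label, this says little of sex itself.

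The 5 listed sites were called in few animals each, 7 at Camk2d, 3 at Itpr2, 10 at Prkar1b and 7 and 3 at Dgki. Such counts alone leave few animals with several sites called, and no expected number was computed. No listed site was called in 1 of the CON, 4 of the PF and 4 of the PAE animals, a single one in 6 CON, 4 PF and 4 PAE animals, and 2 sites in 2 animals of each group. The remaining animal was CON replicate C43_F, with 208631 autosomal peaks the CON animal with the most, which had a peak at 4 of the 5. Over the 30 animals, log2 height at the sites correlated with the number of autosomal peaks with a Pearson r of 0.55 at Camk2d, 0.48 and 0.52 at the Dgki sites, 0.21 at Itpr2 and −0.16 at Prkar1b (Spearman rho 0.39, 0.35, 0.39, 0.21 and −0.16, n = 30). Both animals of a dam were called in 0 litters at Camk2d, Itpr2 and the second Dgki site and in 1 litter each at the first Dgki site and at Prkar1b. With so few animals called, few litters can hold 2 of them, so this says nothing of likeness between littermates.

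Outside their own windows, the regions most like a site in log2 height over the 30 animals were called in 3 to 11 of them. For the Camk2d site they were chr8:45436265-45436673 (Pearson r = 0.91, called in 4 animals) and chr15:64521130-64521646 (0.91, 9 animals). For the Itpr2 site they were chr2:147725837-147726145 and chr10:40787142-40787459 (1.00 and 0.97, both called in the same 3 animals as the site). For the Prkar1b site they were chr6:129202008-129202674 and chr20:3617464-3618325 (0.83 each). For the Dgki sites they were chr14:5881848-5882472 and chr14:6791069-6791465 (0.91, 11 animals, and 0.90, 4 animals), and chr10:48777537-48778098 and chr20:54402696-54403146 (both 1.00). The last value rests on 2 CON animals, since all others were at the floor. With so few peaks behind each site, many regions can share its pattern, and nothing follows from these r values on shared control.

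Other second messenger genes also appear in the study's lists. By family prefixes of their symbols (adenylyl and guanylyl cyclases, phosphodiesterases, protein kinases A, C and G and their anchors, phospholipases C, inositol phosphate enzymes and receptors, ryanodine receptors, Camk kinases, calcineurin, diacylglycerol kinases and calcium pumps), 16 listed regions in 15 genes lay outside the 4 loci. They were chosen on these contrasts and are described without a test. Height had a lower mean log2 in PAE than in CON animals at 13 of the 16 and a higher one at 3, and a lower one in PF than in CON animals at 11 and a higher one at 5. In PAE against PF animals it was lower at 8 and higher at 7, with both groups at the floor at Prkca. Over all tested regions, the fitted difference was below 0 at 63.2% between PAE and CON, 57.6% between PF and CON and 56.4% between PAE and PF. They were called in 2 to 30 animals (median 6.5), and 14 of the 16 were among the tested regions.

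Some of these regions were called in more animals than any of the 5 sites. A region of Pde9a, which degrades cyclic GMP (chr20:10214028-10214572), had 1.43 ± 0.517 in CON, 1.52 ± 0.455 in PF and 0.920 ± 0.380 in PAE animals (SD, n = 10 each). An intron region of Akap9, an anchor of protein kinase A (chr4:27326224-27326891), had 1.22 ± 0.472 in CON, 1.18 ± 0.235 in PF and 0.767 ± 0.254 in PAE animals. An intron region of Atp2b2, a calcium pump of the plasma membrane (chr4:145844392-145845064), had 0.964 ± 0.247 in CON, 0.692 ± 0.120 in PF and 0.723 ± 0.140 in PAE animals. Plcg2, a phospholipase C (chr19:50074113-50074548), had 1.09 ± 0.471 in CON, 0.860 ± 0.396 in PF and 1.15 ± 0.481 in PAE animals. These 4 were chosen after their values were seen, because each was called in more than 20 animals.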

How the data were processed

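Alignment to Rn6 (BWA), removal of duplicates and poor reads (SAMtools) and peak calling per animal at q = 0.05 without a control (MACS2, 2.1.4 in the file headers) were done by the authors. The deposited signal of a peak is its pileup, unscaled, and the deposited −log10 q-value served for the stricter threshold. Here, entries of the same peak were joined and autosomal peaks merged, and log2 normalized heights of the 352026 regions called in at least 3 animals were fitted with limma 3.58.1 (R 4.3.3, trended variance) on group, labelled sex and chip, with Benjamini-Hochberg adjustment over all of them. The fit was tested on simulated data. Tables came from scipy 1.17.1, pandas 2.3.3 and numpy 2.4.6 under Python 3.11.15. Members and lists were chosen with earlier results of these data known. Regions named are the listed sites, the nearest tested region on each side, the highest median and the smallest p per window and contrast, and the 2 regions most like each site. Listed regions of Pde9a, Akap9, Atp2b2 and Plcg2 are also named, chosen after their values were seen. The genome and gene annotation of Rn6 were not used here, so features are those of the study's lists and no sequence is given. Alternatives covered chip, sex and litter terms, floors, filters, scalings, peak thresholds, Fisher's exact test and libraries left out.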

Additional observations from a re-analysis of the deposited data

Results flagged for a closer look

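In 10 of 45 groups of 10 animals examined, the highest or lowest animal stood apart from the others by Dixon's test (gap over range above 0.466), where chance flags about 5% of groups without ties. Where the other 9 animals were all at the floor, as at 2 of the 10, a single called animal suffices for this. Several of the 10 share an animal and are not independent. CON replicate C43_F was the highest CON animal at the Camk2d site (1.295, next 0.803) and at the second Dgki site (0.791, next 0.601). PF replicate PF26_F was the single PF animal above the floor at the Itpr2 site (1.24, others 0.438), and PAE replicate E3_F the single PAE animal above it at the Camk2d site (0.501, others 0.438). At chr2:230959745-230960785 in the Camk2d window, CON replicate C45_F had 1.54 (next 0.863) and PF replicate PF27_F had 1.11 (next 0.785). At chr4:180595274-180595667 in the Itpr2 window, PF replicate PF24_F had no called peak (0.438), while the next PF animal had 2.56. PAE replicate E2_F had the most called regions among PAE animals at Camk2d (18, next 11), at Itpr2 (32, next 22) and over the 4 loci (101, next 70), and also the most autosomal peaks of that group (189772). The part of the number of peaks in these values was not tested.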

How the results depend on the processing

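Log2 differences at the 5 listed sites moved by less than 1 residual SD without taking the opposite sign in 176 of 195 values over 13 alternatives that gave one. These include 7 values of 0, at Itpr2 and the second Dgki site in all contrasts with the 12 libraries that went with the labelled sex, where no height was above the floor, and at the second Dgki site between PAE and PF without a chip term. Signs changed at Camk2d between PF and CON under median ratio scaling (0.0374), quantile normalization (0.0414) and these 12 libraries (0.18), at the first Dgki site between PAE and CON with these 12 libraries (0.077), at the second Dgki site between PAE and PF without a sex term (−0.0058), under median ratio scaling (−0.0088) and with the chromosome X set in place of the labelled sex (−0.0126, chosen after seeing the data), and at Itpr2 between PF and CON under median ratio scaling (0.0059) and with q below 0.01 (0.10). At chr4:180688908-180689824 the difference between PAE and PF was 0.0289 with peaks covering 50% of the region. With 0 and a pseudocount of 0.1 in place of the floor, differences grew to −0.995 at Camk2d between PAE and CON and −1.62 at the first Dgki site between PF and CON. Small differences moved too. Over the 13 alternatives, the second Dgki site had −0.0126 to 0.34 between PAE and PF and −0.72 to 0 between PF and CON.

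Neighbouring regions at an unadjusted p under 0.05 numbered, in the order PAE to CON, PAE to PF, then PF to CON, 30, 16 and 28 with the chip effect removed first, which does not charge the fit for it. Neighbouring regions numbered 2, 0 and 0 by Fisher's exact test, for which the share over all regions is not given. They numbered 0, 1 and 0 of the 4 regions called in all animals, against 10.9, 5.22 and 5.83% of all such regions. In the 12 libraries (4 residual degrees of freedom) they numbered 8, 3 and 4, with the shares given above. Between PAE and CON there were 8 with the pseudocount and 10 under median ratio scaling, and between PAE and PF 4 under median ratio scaling. Under median ratio scaling lower and higher regions were 9 and 1, 3 and 1, and 11 and 1, and under quantile normalization 11 and 3, 6 and 3, and 9 and 5. Together these were 5.71, 2.29 and 6.86% under median ratio scaling, against 6.14, 4.51 and 5.36% of all tested regions. Under quantile normalization they were 8.0, 5.14 and 8.0%, against 6.32, 4.72 and 5.69%. Of all regions at that p, 81.8% were lower between PAE and CON, against 66.1% under median ratio scaling and 71.1% under quantile normalization, and 66.2% between PAE and PF, against 53.8% under median ratio scaling. Leaving out each animal gave 10 to 22, 4 to 11 and 10 to 18 neighbouring regions. Their shares ran over 5.71 to 12.6%, 2.29 to 6.29% and 5.71 to 10.3%. Those of all tested regions ran over 5.85 to 8.47%, 3.74 to 4.91% and 5.82 to 7.67%. The lowest counts of the first contrast were without CON replicate C45_M (10) and PAE replicate E3_F (11). Those of the second contrast were without PAE replicate E2_M (4), PF replicate PF27_F (5) and CON replicate C44_M (5).

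Over all regions, PAE versus CON gave 25 with the chip effect removed first and 0 without a chip term, with the pseudocount, with regions called in all animals, with peaks covering 50%, by Fisher's exact test and in the 12 libraries, and 0 or 1 with each animal left out (1 in 7 of 30 fits). PF versus CON gave 27 with the chip effect removed first, and PAE versus PF 147 in the 12 libraries. The interaction between PAE and CON gave 1 without a chip term. Leaving out each animal gave −0.16 to 0.14 at Camk2d between PF and CON, −0.22 to 0.13 at the first Dgki site between PAE and CON, −0.0241 to 0.0256 at the second between PAE and PF and −0.13 to 0.0458 at Itpr2 between PF and CON. The cause of these shifts was not tested. No paired analysis was possible because the labels used here do not name the PAE partner of a PF dam. With litter as a random effect, which the reported fit does not have, the neighbouring regions numbered 18, 8 and 15. These were 10.3, 4.57 and 8.57%, against 7.68, 4.66 and 6.71% of all tested regions. Fisher's exact test and the regions called in all animals gave no value at the sites. Peaks of 6 to 24 fragments at the sites limit what this depth can show.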
